A study of Mus musculus with 5 samples.

Results

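The genes C1qa, C1qb, C1qc, C1ra, C4b, C3, Cfb and Cfi, 8 of the 16498 genes of the deposited table, were chosen by name as complement genes and followed across the cells of the mouse aortic arch that hold their transcripts. The data comprised 5 libraries of droplet 3′ single-cell RNA sequencing, in which live cells of the aorta from its root to the curvature were sorted with DAPI. Cells of 6 mice were pooled, without a statement of whether for each library or each group. The labels assign 2 libraries to Apoe-/- mice, which carry an intact Oasl1 gene, and 3 to Oasl1-/-Apoe-/- mice. Both groups therefore lack Apoe, the apolipoprotein whose loss makes mice prone to atherosclerosis, and both were kept on a normal chow diet for 28 weeks. The Oasl1 allele lacks the promoter and exon 2 in every cell of the animal, on a C57BL/6 background, so it is not a deletion in one cell type. OASL1 belongs to the interferon-induced oligoadenylate synthetase family.

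Complement is a set of secreted proteins that tag particles and cells for clearance and drive inflammation. C1q, built from the C1qa, C1qb and C1qc chains, binds targets together with the proteases C1r and C1s, which cleave C4 and C2 into the classical C3 convertase. C3 is the central component, factor B (Cfb) forms the alternative C3 convertase, and factor I (Cfi) cuts C3b and C4b and so limits both. The liver supplies most circulating complement, whereas C1q is known to come largely from macrophages and dendritic cells, and fibroblasts make several of the other components in tissues.

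The table held 18260 cells, between 3212 and 4338 in a library, with median depths of 4495 to 5186.5 unique molecular identifiers (UMIs) in a cell. Levels are given as CP10K, the UMIs of a gene per 10000 UMIs of the cell, averaged over the cells of a library. Of Oasl1 there were 27 and 16 UMIs in Apoe-/- libraries, against 299, 257 and 315 in those labelled Oasl1-/-Apoe-/-. Tags of a 3′ library lie outside the deleted exon 2, so transcripts of the altered allele could still be counted. The allele also lacks the promoter, so the higher counts under the label Oasl1-/-Apoe-/- remain unexplained, and their cause was not tested. The labels could not be checked from these counts, and the groups are named below by their labels only. Any 2 libraries shared 6 to 22 cell barcodes. The labels do not say whether the libraries of a group came from separate pools of mice, so p-values measure only the spread between these libraries, which may be technical.

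Cell types were rebuilt from clusters made without the complement genes and were named from marker lists. Macrophage-like cells (clusters 4, 10 and 11) numbered 287 and 300 in the Apoe-/- libraries and 585, 555 and 613 in the libraries labelled Oasl1-/-Apoe-/-. Fibroblast-like cells (cluster 14), with all 8 fibroblast markers raised and Clec3b, Dpt and Pi16 among their leading genes, numbered 61 and 66 against 89, 107 and 96. Clusters 6 and 8, which also held stromal genes, stayed unnamed because their leading genes did not match 1 marker list. Cluster 6, with 803 cells, was led by Itih4, Sfrp2 and other genes outside the lists and had 4 smooth muscle markers raised. Cluster 8, with 55 and 52 cells in the Apoe-/- libraries and 192, 199 and 206 in the others, was led by Col2a1, Comp and Lum and had 5 fibroblast and 4 cartilage markers raised. Smooth muscle-like cells numbered 9444 and endothelial-like cells 1486.

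The 8 genes lie on 4 chromosomes (GRCm38). C1qa (ENSMUSG00000036887, chr4:136895917-136898803), C1qc (ENSMUSG00000036896, chr4:136889804-136893065) and C1qb (ENSMUSG00000036905, chr4:136880129-136886187) are neighbours on the minus strand within 18675 bases. C4b (ENSMUSG00000073418, chr17:34728380-34743882), Cfb (ENSMUSG00000090231, chr17:34856374-34862518) and C3 (ENSMUSG00000024164, chr17:57203970-57228136) are on the minus strand of chromosome 17. The neighbouring gene C2 ends 85 bases before Cfb begins, on the same strand. C1ra (ENSMUSG00000055172, chr6:124512405-124523443) and Cfi (ENSMUSG00000058952, chr3:129835884-129875332) are on the plus strand. C1ra has a near-identical copy, C1rb, and C4b has C4a, so reads of these pairs could have been split or misplaced when they were counted.

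The stretches before the start sites of C3, C1qb and C1qc are shown because these genes had their highest levels in different cells, C3 in fibroblast-like and C1q in macrophage-like cells. They come from RefSeq's annotation of GRCm38.p6, which held entries for 4 of the 8 genes, are written 5′ to 3′ on the minus strand and stop before the first annotated base of the gene. For C3 (chr17:57228137-57228386) the capitals mark the motif TTNNGNAA, the letters of C/EBP sites, and GGG followed after 5 free bases by CC, those of NF-kB sites, on either strand. For C1qb (chr4:136886201-136886450) and C1qc (chr4:136893066-136893164, where 99 bases were left before the annotated start) they mark AGGAAGT, the letters bound by PU.1 and other ETS factors, here on the opposite strand.
C3: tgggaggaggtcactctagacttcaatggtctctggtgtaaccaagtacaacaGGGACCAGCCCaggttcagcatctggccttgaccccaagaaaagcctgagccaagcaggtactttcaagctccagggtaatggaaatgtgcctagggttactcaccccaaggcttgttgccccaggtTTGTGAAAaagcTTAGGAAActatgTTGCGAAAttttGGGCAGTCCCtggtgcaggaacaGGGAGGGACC
C1qb: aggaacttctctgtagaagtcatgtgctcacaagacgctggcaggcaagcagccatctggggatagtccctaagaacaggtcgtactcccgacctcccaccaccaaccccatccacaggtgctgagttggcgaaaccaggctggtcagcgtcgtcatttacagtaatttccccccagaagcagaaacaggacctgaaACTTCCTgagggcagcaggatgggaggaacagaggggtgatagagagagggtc
C1qc: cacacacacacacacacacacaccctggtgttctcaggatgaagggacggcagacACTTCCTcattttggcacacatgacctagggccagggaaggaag

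The C3 stretch held 3 matches to the C/EBP letters, at -70, -58 and -45, and matches to the NF-kB letters that overlapped between strands. Each C1q stretch held 1 match to the PU.1 letters, at -53 in C1qb and -44 in C1qc, counted from the end of each stretch to the first base of the match. The C1qb stretch also held overlapping matches to the NF-kB letters from -191, which are not in capitals. Of 32851 mouse promoters, each searched over the 250 bases before the start, 36.8% held the C/EBP letters, 45.8% the NF-kB letters and 7.69% the PU.1 letters. These shares are for 250 bases, which the C1qb and C3 stretches have and that of C1qc does not. The letters of an interferon-stimulated response element (GAAA and again GAAA after 2 free bases, in 2.98% of promoters) and of a gamma-activated site (TTCNNNGAA, in 7.02%) were in none of the 3 stretches. A match of letters is a description of the sequence and was not related to any factor here.

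The 8 genes fell into 3 patterns of cells. C1qa, C1qb and C1qc were highest in macrophage-like cells, with means over the 5 libraries of 64.6 ± 7.52, 82.4 ± 8.08 and 59.5 ± 3.91 CP10K (SD). Monocyte-like cells came next with 5.52 ± 0.859, 10.3 ± 2.86 and 5.7 ± 1.27 CP10K, and every other named type was at or below 0.515 CP10K on average. Among unnamed clusters, C1qa was also high in clusters 19 and 9, at 53.4 ± 6.45 and 52.4 ± 10.1 CP10K. As means over all 5 libraries, C1ra, C4b and C3 were highest in fibroblast-like cells, with 2.33 ± 1.08, 4.69 ± 2.9 and 18.6 ± 10.2 CP10K, followed by cluster 6 with 1.55 ± 0.368, 3.08 ± 0.58 and 4.75 ± 0.581 and cluster 8 with 0.787 ± 0.108, 1.63 ± 0.356 and 4.49 ± 1.4. For C1ra and C4b the spread of fibroblast-like cells and cluster 6 overlapped, and so did that of clusters 6 and 8 for C3. The order differed between the groups. In the Apoe-/- libraries C4b was higher in cluster 6 (2.85 ± 0.109 CP10K) and cluster 8 (1.97 ± 0.134) than on average in fibroblast-like cells (1.65 ± 0.648), and C1ra was at 1.15 ± 0.0364 in cluster 6 and 1.18 ± 0.165 in fibroblast-like cells. C3 was highest in fibroblast-like cells in both groups. Over all libraries Cfb was highest in fibroblast-like cells (0.458 ± 0.356 CP10K). The 28 lymphatic endothelial-like cells, all from the 3 libraries labelled Oasl1-/-Apoe-/-, were at 0.311 ± 0.272 CP10K, which rests on 2 UMIs. Cfi was found at low levels in endothelial-like and fibroblast-like cells (0.107 ± 0.0639 and 0.0792 ± 0.06 CP10K) and was 0 in macrophage-like cells (0 of 587 Apoe-/- cells, which allows a share of cells with a UMI of up to 0.511%, and 0 of 1753, which allows 0.171%). These orders are descriptions, since the clusters were made from the same cells.

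**Figure D1:**
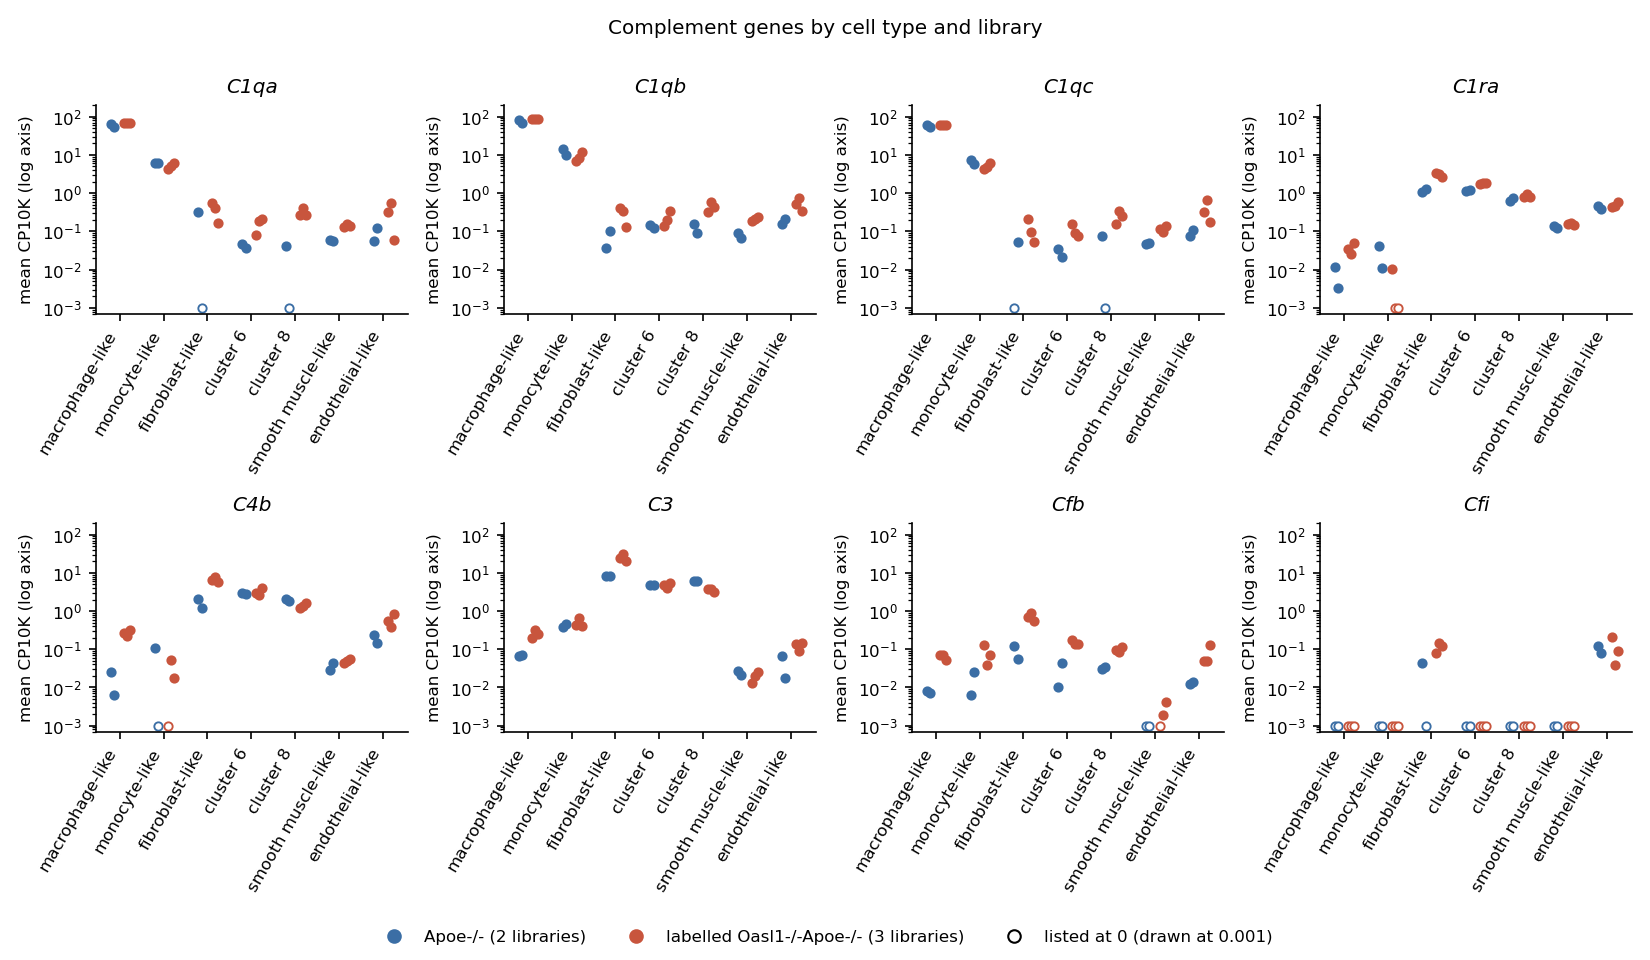
Mean CP10K of each gene (log axis) in 7 groups of cells, with 1 point for each library, the 2 Apoe-/- libraries in blue and the 3 libraries labelled Oasl1-/-Apoe-/- in red, and open points for libraries listed at 0. The C1q chains are highest in macrophage-like cells and C3 in fibroblast-like cells in both groups, C4b is highest in fibroblast-like cells in the red libraries and in cluster 6 in the blue ones, and Cfi appears in endothelial-like and fibroblast-like cells.

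The libraries also differed in how each gene's UMIs were divided among the cells. Macrophage-like cells held 82.9% ± 0.678 (SD, n = 2) of C1qa UMIs in the Apoe-/- libraries and 85.2% ± 1.78 (n = 3) in those labelled Oasl1-/-Apoe-/-, while their share of all cells went from 6.98% ± 0.0864 to 17.8% ± 1.02. Cluster 6 held the largest share of C3 UMIs in the Apoe-/- libraries, 43.6% ± 3.51, and fibroblast-like cells did so in the others, 45.2% ± 7.45 against 19.1% ± 3.8. For C4b, cluster 6 went from 54.1% ± 0.219 to 27.7% ± 4.5 and fibroblast-like cells from 7.98% ± 2.61 to 26.2% ± 7.8. For C1ra, which is spread more widely, smooth muscle-like cells went from 42.9% ± 0.00088 to 17.9% ± 0.888 while cluster 8 went from 7.49% ± 0.89 to 23% ± 0.318. Most Cfi UMIs lay in endothelial-like cells, with 97.7% ± 3.21 and 70.6% ± 21. With 2 against 3 libraries the exact two-sided permutation test cannot go below p = 0.1, so no share could pass 0.05. Shares follow the numbers of cells as well as their levels. With cells taken by a per-cell gate on marker UMIs in place of clusters, C3 in gated fibroblasts went from 49.5% ± 10.0 to 39.6% ± 2.43.

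**Figure D2:**
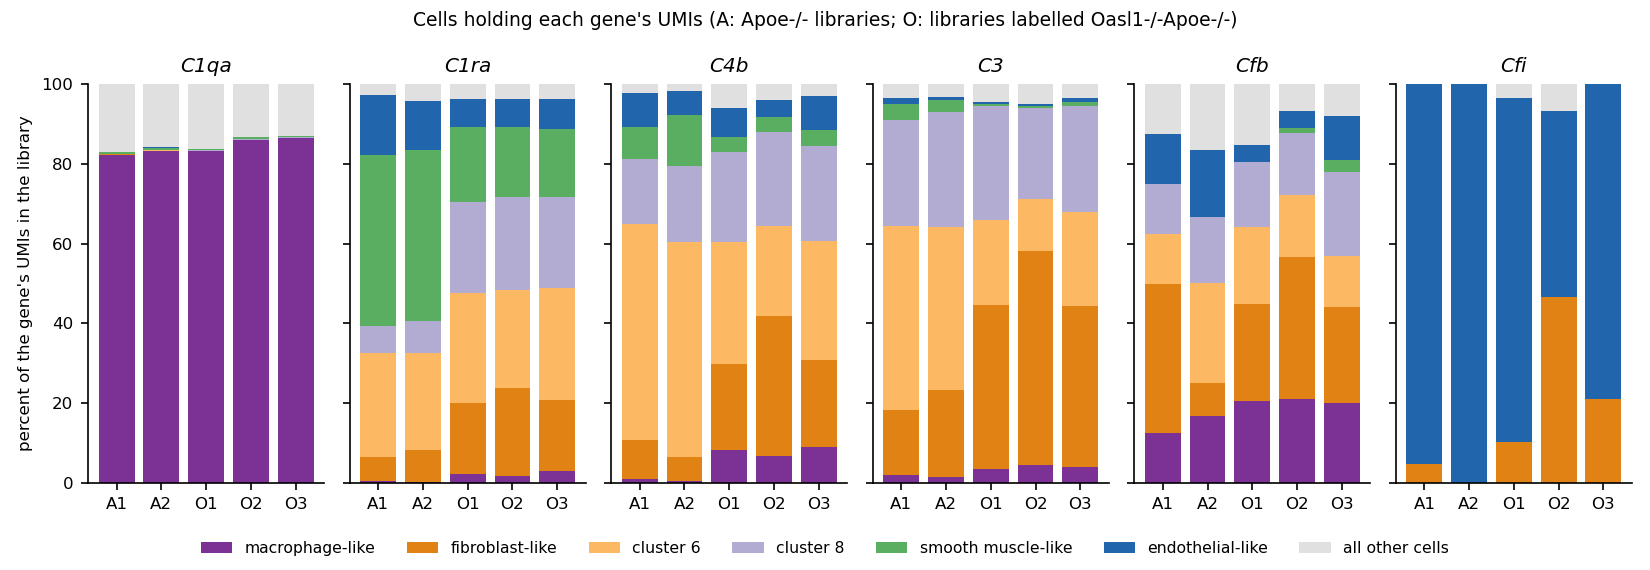
Percent of each gene's UMIs held by each group of cells in the 2 Apoe-/- libraries (A1, A2) and the 3 libraries labelled Oasl1-/-Apoe-/- (O1 to O3). C1qa lies mostly in macrophage-like cells in all 5 libraries, and the fibroblast-like share of C3 is 45.2% on average in the O libraries against 19.1% in the A libraries.

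The libraries labelled Oasl1-/-Apoe-/- were then compared with the Apoe-/- libraries, first over all cells. Over the whole aortic arch, complement transcripts were more abundant in the libraries labelled Oasl1-/-Apoe-/-. C1qa was at 6.35 and 5.25 CP10K in the Apoe-/- libraries and at 16.3, 15.6 and 15.8 in the others, and C3 was at 0.458 and 0.408 against 1.2, 1.59 and 1.18. Neither gene's groups overlapped, which held for 62.3% of all genes tested. All 6 of the genes that passed the filter on low values rose by limma's moderated test across all genes, where 20.5% of the 9836 genes tested rose and 20.6% fell. On the log2 scale the differences were 1.45 ± 0.0685 (SE) for C1qa, 1.36 ± 0.074 for C1qb, 1.28 ± 0.0613 for C1qc, 0.66 ± 0.0679 for C1ra, 1.27 ± 0.0838 for C4b and 1.5 ± 0.111 for C3, with Benjamini-Hochberg adjusted p between 1.54e-07 and 2.97e-05. Cfb and Cfi were below the filter. Cfb gave 20 UMIs under Apoe-/- and 288 in the other group, at 0.00466 to 0.00552 CP10K against 0.0542 to 0.0625, without overlap. Cfi gave 36 against 63 UMIs, at 0.00755 to 0.0124 CP10K against 0.00817 to 0.0176, with overlap. Averages over all cells follow the make-up of the tissue as well as the level within each type. When every library was given the same shares of clusters, C1ra, C4b and C3 still passed, while C1qa, C1qb and C1qc did not (log2 differences 0.09, 0.12 and 0.04, adjusted p 0.48, 0.32 and 0.693 by limma).

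Within macrophage-like cells, 2 of the C1q chains rose slightly and C4b and C3, which are scarce there, rose more. C1qa was at 62.8 and 52.2 CP10K in the Apoe-/- libraries and at 70.1, 69.8 and 68.2 in those labelled Oasl1-/-Apoe-/-, and C1qb at 82.3 and 68.4 against 87.3, 86.2 and 87.5. The groups did not overlap for either chain, as for 43.3% of all genes tested, although the 2 Apoe-/- libraries lay farther from each other than did the 3 others. C1qc was at 60.6 and 52.6 against 61.4, 62.3 and 60.5 CP10K, and its groups overlapped. By limma 4 of the 5 genes tested rose and none fell, where 8.58% of the 7915 genes tested rose and 8.11% fell. The log2 differences were 0.28 ± 0.0648 for C1qa (adjusted p = 0.00829) and 0.21 ± 0.0644 for C1qb (adjusted p = 0.034). C1qc did not pass (0.12 ± 0.0581, 95% interval -0.0 to 0.25, adjusted p = 0.183). In a per-cell UMI gate on macrophage markers in place of clusters all 3 chains were called, C1qc from 54.1 and 49 to 60, 61.8 and 58.6 CP10K (0.22 ± 0.0546, adjusted p = 0.0133 by limma), C1qa with 0.42 ± 0.0577 and C1qb with 0.31 ± 0.058. All 3 chains were found together in 85.7% to 92.6% of macrophage-like cells of a library after each cell was thinned to 1000 UMIs, and in none of the smooth muscle-like cells. In monocyte-like cells the chains were found together in 8.18% to 20.2% of cells, and none of the 3 was called there, where 3.95% of 7618 genes were (log2 differences -0.27 ± 0.146 for C1qa, -0.41 ± 0.167 for C1qb and -0.41 ± 0.154 for C1qc, adjusted p between 0.182 and 0.445 by limma).

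C1qa was called in cluster 4 and not in cluster 11. Cluster 4, led by Gpnmb, Trem2, Fabp5 and Lpl, went from 56.1 and 47.2 CP10K of C1qa to 63.8, 66.1 and 60.9, with a log2 difference of 0.31 ± 0.067 (adjusted p = 0.00678 by limma, 6.17% of 7822 genes called). Cluster 11, led by Cd72, Slamf9 and Adgre1, was at 86.1 and 70.6 against 72.9, 74.9 and 67.8 CP10K, and its groups overlapped (-0.12 ± 0.0884, 95% interval -0.31 to 0.07, adjusted p = 0.622). The difference between these clusters was itself not called (0.42 ± 0.218, adjusted p = 0.563). Cluster 10, led by the chemokine genes Ccl12, Ccl8 and Ccl7, had 6 cells in each Apoe-/- library against 192, 171 and 198, and was at 101 and 82.2 against 76.6, 71.0 and 77.8 CP10K of C1qa. With clusters 4, 10 and 11 given equal weight, C1qa turned to -0.07 and no member passed. Without cluster 10, C1qa was still called (0.24 ± 0.0669, adjusted p = 0.0292) and C1qb was not (0.19 ± 0.0647, adjusted p = 0.0776 by limma). Without replicate 2 labelled Oasl1-/-Apoe-/-, C1qa (adjusted p = 0.053) and C1qb (0.115) were no longer called, and C1qb was also lost without Apoe-/- replicate 2 and without replicate 1 or 3 labelled Oasl1-/-Apoe-/- (adjusted p between 0.109 and 0.163, limma).

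C4b, the mouse form of complement C4, gave 4 and 1 UMIs in the macrophage-like cells of the Apoe-/- libraries and 73, 67 and 102 in those of the others. These are levels of 0.0255 and 0.00649 CP10K against 0.262, 0.226 and 0.325, with no overlap and a log2 difference of 2.29 ± 0.19 (adjusted p = 5.9e-07 by limma). A UMI of C4b was found in 0.852% of 587 cells (Wilson 95% interval 0.364 to 1.98) and in 7.64% of 1753 (6.49 to 8.98). In NK/T-like cells, which should lack the gene, the shares were 0.0% of 215 and 0.949% of 527, with median depths of 1745 and 1770 UMIs against 6423 and 5767 in macrophage-like cells. After thinning to 1000 UMIs, the shares were 0.17% and 2.23% in macrophage-like cells and 0.0% and 0.415% in NK/T-like cells. The rise was called in cluster 4 (3 and 0 UMIs against 11, 25 and 15, adjusted p = 0.00162). It was also called in cluster 11, where both Apoe-/- libraries gave 0 UMIs in 111 cells, which allows up to 2.7% of cells with one, and the others gave 10, 13 and 17 (adjusted p = 0.0278, 0.514% of 7787 genes called).

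In cluster 10, C4b was at 0.598 and 0.324 CP10K in 6 cells each, which is 1 UMI a library, and at 0.547, 0.369 and 0.664 in the others. Without cluster 10 the C4b difference was 1.82 ± 0.21 (adjusted p = 4.69e-06), whereas with the 3 clusters weighted equally it was 0.74 ± 0.273 and was not called (adjusted p = 0.2 by limma). The summed list of fibroblast markers was at 0.145 to 0.235 UMIs per 10000 in the Apoe-/- libraries and at 0.219 to 0.772 in the others, which overlap. Of its 8 genes 2 were higher without overlap, where 43.3% of all genes tested were apart in either direction, and Pdgfra was at 0. The ratio of C4b to this list was 0.133 and 0.0213 in macrophage-like cells of the Apoe-/- libraries. In the libraries labelled Oasl1-/-Apoe-/- it was 0.245 to 1.13 in macrophage-like cells and 0.0297 to 0.0399 in fibroblast-like cells. In these libraries it was 0.112 to 0.159 in smooth muscle-like cells and 0.0596 to 0.0771 in cluster 6. The part of stray RNA from other cells in the C4b rise was not tested.

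C3 was also low in macrophage-like cells and rose there, from 0.0683 and 0.0694 CP10K to 0.199, 0.322 and 0.246, with a log2 difference of 1.34 ± 0.181 (adjusted p = 9.3e-05 by limma). Among the macrophage-like clusters C3 was highest in cluster 10, at 0.465 to 0.582 CP10K in the libraries labelled Oasl1-/-Apoe-/-. Without that cluster the difference was 0.52 ± 0.268 and was not called (adjusted p = 0.266). In a UMI gate on macrophage markers in place of clusters it was 0.54 ± 0.246 (adjusted p = 0.197). Cfb gave 1 and 2 UMIs in the Apoe-/- macrophage-like cells and 20, 19 and 20 in the others, and C1ra 2 and 1 against 14, 12 and 19, and both were below the filter on low values. Their levels did not overlap between the groups, as for 43.3% of all genes tested. Of the UMIs in the libraries labelled Oasl1-/-Apoe-/-, 41 of 59 for Cfb and 25 of 45 for C1ra lay in cluster 10, which had 12 Apoe-/- cells. Within cluster 10, Cfb was at 0.126 ± 0.179 against 0.128 ± 0.0447 CP10K.

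**Figure D3:**
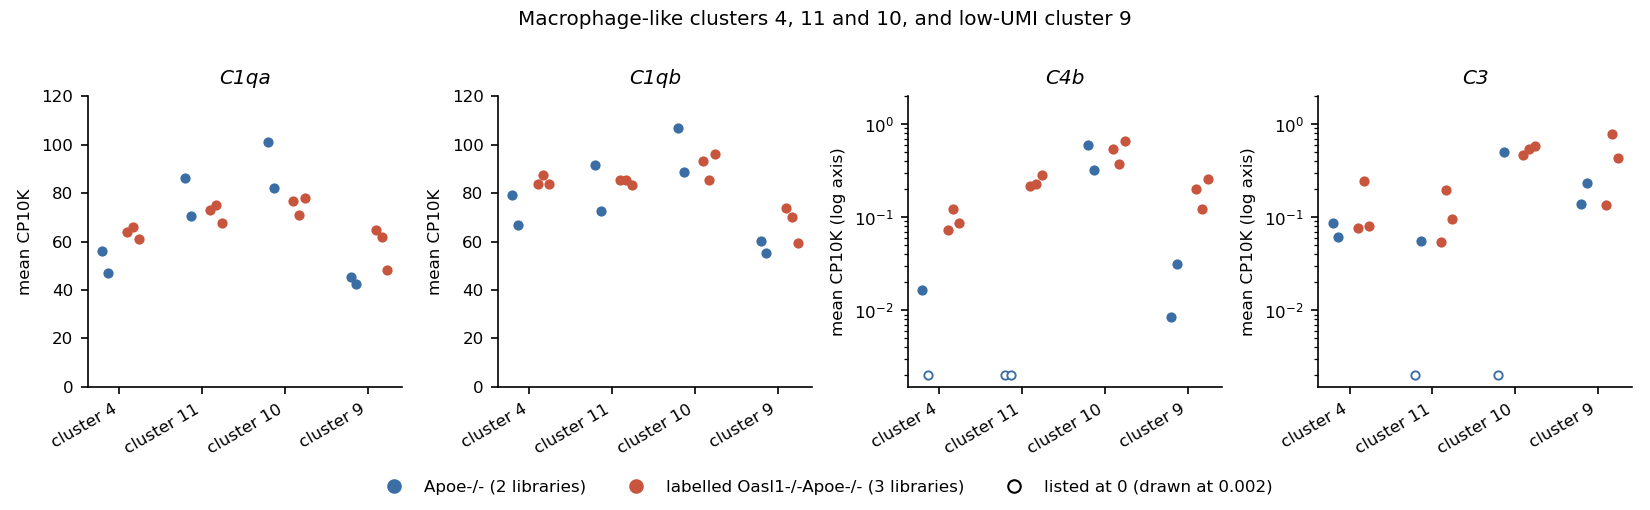
Mean CP10K of C1qa and C1qb (linear axes) and of C4b and C3 (log axes) in macrophage-like clusters 4, 11 and 10 and in the shallow cluster 9, with 1 point for each library and open points for libraries listed at 0. C1qa is higher in the 3 red libraries in cluster 4 (60.9 to 66.1 against 47.2 and 56.1) and not in clusters 11 and 10, and C4b is higher in clusters 4 and 11. In cluster 9 C1qa is at 48.1 to 64.6 in the red libraries against 42.4 and 45.3, and C4b at 0.124 to 0.255 against 0.00837 and 0.0312. Neither gene was called in cluster 9.

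In fibroblast-like cells C1ra and C4b of the classical pathway, C3 and factor B rose. C3 was at 8.33 and 8.28 CP10K in the Apoe-/- libraries and at 25.1, 31.1 and 20.3 in those labelled Oasl1-/-Apoe-/-, a mean of 8.31 ± 0.0296 (SD, n = 2) against 25.5 ± 5.42 (n = 3). The groups did not overlap, as for 28.3% of all genes tested, and the Apoe-/- libraries lay close together. The share of fibroblast-like cells with a C3 UMI went from 45.7% (Wilson 95% interval 37.3 to 54.3, 127 cells) to 69.5% (64.0 to 74.5, 292 cells), at median depths of 3001 and 3338.5 UMIs, and from 33.6% to 61.5% after thinning. In NK/T-like cells it was 0.0% of 215 and 0.949% of 527. By limma 4 of the 8 genes rose in these cells and none fell, where 2.06% of the 9656 genes tested rose and 0.756% fell. C3 had a log2 difference of 1.59 ± 0.144 (adjusted p = 3.31e-12).

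C4b went from 2.11 and 1.2 CP10K to 6.33, 7.97 and 5.85, a log2 difference of 2.03 ± 0.208 (adjusted p = 1.71e-10 by limma). C1ra, the protease that C1q activates, went from 1.06 and 1.3 to 3.33, 3.23 and 2.7 CP10K (1.35 ± 0.229, adjusted p = 3.78e-05). Cfb, the alternative pathway protease, was scarce and went from 0.124 and 0.0545 CP10K, 3 and 1 UMIs, to 0.678, 0.875 and 0.557, 24, 32 and 24 UMIs (2.46 ± 0.439, adjusted p = 9.81e-05). None of these 3 genes overlapped between the groups. Cfi, with 1 and 0 UMIs against 3, 7 and 4, did not pass (1.27 ± 0.664, 95% interval -0.06 to 2.61, adjusted p = 0.419). The C1q chains, at 0.549 CP10K or less in every library, did not pass either. The calls on C1ra, C4b, C3 and Cfb remained with each library left out in turn.

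Markers of mesothelial cells, which line the body cavities, moved with these genes. Their summed list was at 0.0 to 2.33 UMIs per 10000 in the fibroblast-like cells of the Apoe-/- libraries and at 4.41 to 7.04 in the others, and 3 of its 4 genes, Msln, Wt1 and Lrrn4, were listed at 0 in both Apoe-/- libraries and above 0 in the 3 others. A UMI of the list was found in 3 cells (2.36%) of the Apoe-/- libraries and in 35 cells (12%) of the others, and the latter cells had 65.9 ± 13.0 CP10K of C3 (SD, n = 3). Other lists moved too. The smooth muscle list went from 31.4 to 31.8 UMIs per 10000 in the Apoe-/- libraries to 16.3 to 27.7, with 2 of its 7 genes lower without overlap. The macrophage list went from 1.47 to 2.28 to 2.64 to 3.28, with 2 of 10 genes higher and 1 lower, Fcgr1 and Mrc1 being at 0. The fibroblast list overlapped, at 195 to 228 against 205 to 219, with 3 of its 8 genes higher and 2 lower without overlap. Of all genes tested in these cells, 28.3% were apart in either direction. The part of these lists in the complement values was not tested. Without the cells holding such a UMI, C3 was at 7.98 ± 0.433 (n = 2) against 19.9 ± 5.51 CP10K (n = 3), C4b at 1.65 ± 0.645 against 6.18 ± 1.07, C1ra at 1.16 ± 0.191 against 2.78 ± 0.411 and Cfb at 0.0923 ± 0.0535 against 0.705 ± 0.173. All 4 were still called (log2 differences 1.28 ± 0.156 for C3, 1.91 ± 0.217 for C4b, 1.23 ± 0.25 for C1ra and 2.44 ± 0.469 for Cfb, adjusted p between 2.23e-10 and 0.00056 by limma).

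C3 and C4b were not called higher in the other stromal clusters. In cluster 6, C3 was at 4.73 and 4.84 CP10K against 4.68, 3.94 and 5.58, with overlap and a log2 difference of -0.03 ± 0.111 (95% interval -0.26 to 0.20, adjusted p = 0.969 by limma). C4b there was at 2.93 and 2.78 against 3.03, 2.6 and 4.08 CP10K (0.15 ± 0.133, interval -0.12 to 0.43). C1ra rose in cluster 6, from 1.13 and 1.18 to 1.77, 1.84 and 1.86 CP10K (0.64 ± 0.127, adjusted p = 0.00515), as did Cfb (4 UMIs in all against 46, adjusted p = 0.0227), where 1.17% of 9305 genes were called. In cluster 8, C3 fell, from 5.94 and 6.06 to 3.69, 3.7 and 3.06 CP10K, with a log2 difference of -0.78 ± 0.109 (adjusted p = 0.0108, 1.76% of 9042 genes called). C4b in cluster 8 was at 2.06 and 1.87 against 1.19, 1.36 and 1.64 CP10K, lower without overlap, as 34.1% of genes were apart in either direction, but not called (-0.49 ± 0.146, adjusted p = 0.148). C1qa (2 and 0 UMIs against 49, 69 and 62) and C1qb were called higher in cluster 8 (adjusted p = 0.0108 and 0.0334 by limma). There 5 of the 10 macrophage markers were higher and 2 lower without overlap, Mrc1 was at 0, and their part in the C1q calls was not tested. In cluster 8, 4 of the 6 cartilage markers were also higher and 1 lower without overlap. Of the 8 fibroblast markers there, 1 was lower and 0 were higher without overlap. The part of these shifts in the C3 fall was not tested.

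The difference in C3 response between fibroblast-like cells and cluster 8, computed within each library, was 2.37 ± 0.332 on the log2 scale (adjusted p = 0.226 by limma), and that in C4b was 2.52 ± 0.399 (adjusted p = 0.226). Against cluster 6 they were 1.62 ± 0.403 (adjusted p = 0.47) and 1.88 ± 0.443 (adjusted p = 0.435). None was called after adjustment over all genes. These pairs of clusters had 0 genes called, while 760 genes against cluster 6 and 868 against cluster 8 were below 0.05 before adjustment.

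The C3 and C4b differences depended on how the stromal cells were delimited. A per-cell gate, which took cells by summed UMIs of the fibroblast markers, drew 39.7% of its 199 Apoe-/- cells from cluster 14 and 25.6% from cluster 8. Of its 578 cells labelled Oasl1-/-Apoe-/- it drew 28.7% from cluster 14 and 47.9% from cluster 8. In these gated cells C3 was at 9.01 ± 1.99 against 9.77 ± 2.77 CP10K (log2 difference 0.10 ± 0.179, adjusted p = 0.84 by limma), C4b at 2.85 ± 0.236 against 3.45 ± 0.758 (0.25 ± 0.165, adjusted p = 0.521) and C1ra at 1.42 ± 0.179 against 1.88 ± 0.35 (0.38 ± 0.171, adjusted p = 0.312), while Cfb still rose (1.73 ± 0.298, adjusted p = 0.00484), as did C1qa (1.65 ± 0.33, adjusted p = 0.0142). The gated cells of cluster 14 alone were at 6.93 and 11.8 CP10K of C3 against 18.0, 28.9 and 15.7. With clusters 6, 8 and 14 pooled, C3 went from 5.82 ± 0.15 to 8.66 ± 1.39 CP10K (0.56 ± 0.101, adjusted p = 0.00275) and C4b from 2.4 ± 0.271 to 3.19 ± 0.25 (0.40 ± 0.0939, adjusted p = 0.0154).

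**Figure D4:**
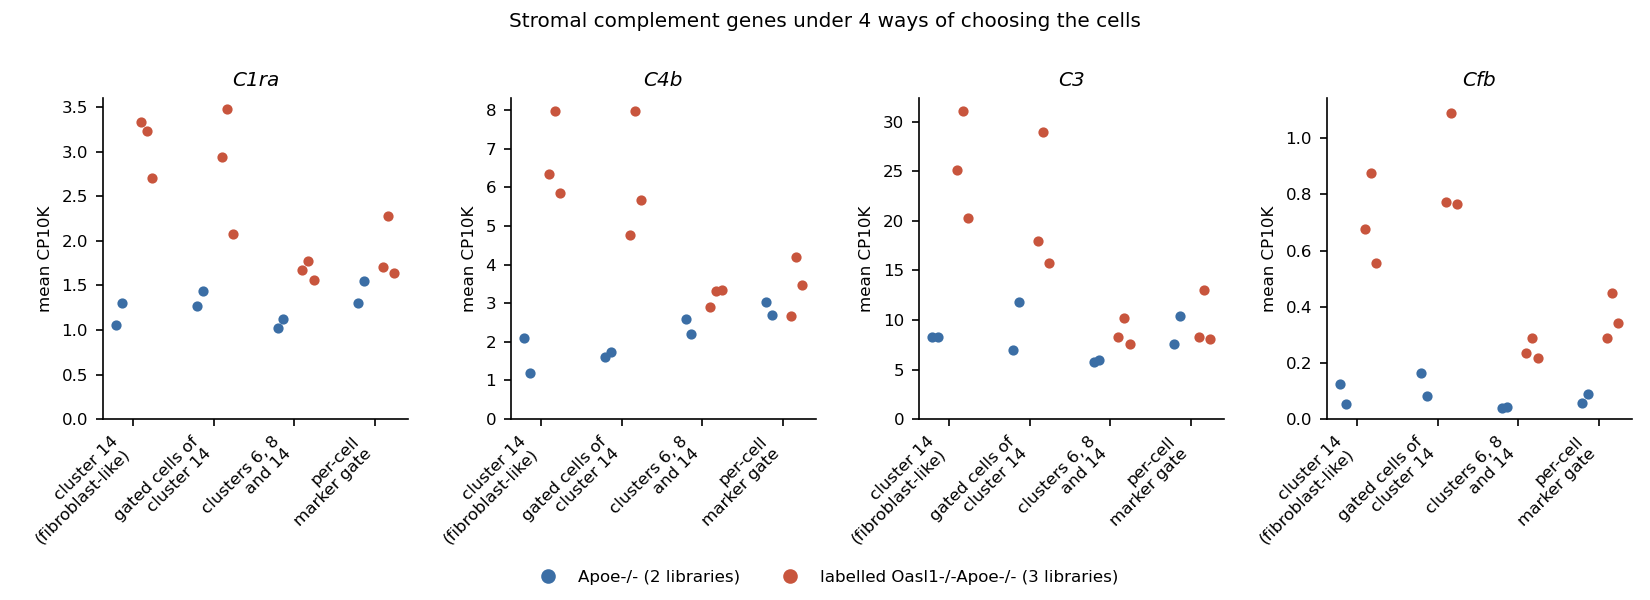
Mean CP10K of C1ra, C4b, C3 and Cfb with stromal cells chosen in 4 ways, 1 point for each library (blue Apoe-/-, red labelled Oasl1-/-Apoe-/-). The groups lie apart in cluster 14 and in the gated cells of cluster 14, whereas C3 and C4b overlap in the per-cell gate over all clusters.

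Smooth muscle-like cells, the largest group, held few complement UMIs. C1ra was at 0.14 and 0.125 CP10K against 0.156, 0.166 and 0.145, and did not pass although the groups did not overlap, as for 36.1% of all genes tested (log2 difference 0.17 ± 0.095, 95% interval -0.03 to 0.37, adjusted p = 0.334 by limma). C4b, C3 and Cfb were below the filter, with at most 0.0542 CP10K in any library. The 3 C1q chains rose (3 of 4 genes tested, where 4.38% of 8973 genes rose and 2.33% fell), from 0.0593 and 0.057 CP10K to 0.129, 0.156 and 0.136 for C1qa (0.81 ± 0.101, adjusted p = 1.63e-05), with 1.01 ± 0.104 for C1qb and 0.75 ± 0.111 for C1qc. These levels were close to those of cells that should lack C1q. A C1qa UMI was found in 2.66% of 5348 and 6.35% of 4096 smooth muscle-like cells, and in 1.86% of 215 and 4.55% of 527 NK/T-like cells, at median depths of 4781 and 5049.5 against 1745 and 1770 UMIs. After thinning to 1000 UMIs the shares were 0.506% and 1.52% against 0.985% and 1.45%. Whether the C1q in smooth muscle-like cells is stray RNA from other cells or expression was not tested. Macrophage markers moved with the C1q chains, since their summed list went from 1.15 to 1.21 UMIs per 10000 to 1.32 to 1.48. Of its 10 genes 5 were higher without overlap, and none was at 0 in all libraries.

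Endothelial-like cells held most of the Cfi, with 21 and 14 UMIs against 25, 7 and 15. Its level was 0.119 and 0.0806 CP10K against 0.21, 0.0387 and 0.0892, the groups overlapped, and the log2 difference was -0.01 ± 0.354 (95% interval -0.72 to 0.70, adjusted p = 0.996 by limma), so that changes within this interval were not detectable at this depth. C4b rose, from 0.237 and 0.143 CP10K to 0.542, 0.381 and 0.823 (1.37 ± 0.248, adjusted p = 0.000251), as did C1qb (1.25 ± 0.249, adjusted p = 0.00104) and C1qc (1.46 ± 0.312, adjusted p = 0.00259). These made 3 of the 7 genes tested, where 1.38% of 9477 genes rose and 0.865% fell. C3 was at 0.0649 and 0.0181 against 0.14, 0.0879 and 0.146 CP10K, did not overlap, as for 26.9% of genes, and was not called (0.97 ± 0.339, adjusted p = 0.167). The share of these cells with a C4b UMI went from 3.71% to 12.4%, and from 1.02% to 3.52% after thinning. C1ra was at 0.465 and 0.374 against 0.445, 0.469 and 0.603 CP10K (0.24 ± 0.208, adjusted p = 0.753).

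Several other measures moved with the endothelial values. Of the fibroblast markers 3 of 8, and of the macrophage markers 2 of 10, were higher without overlap, and none of either was at 0 in all libraries. Of all genes tested in these cells, 26.9% were apart in either direction, so these counts alone show no shift. The fibroblast list went from 11.7 to 13.6 UMIs per 10000 to 19.4 to 36.5, the macrophage list from 2.88 to 3.38 to 4.73 to 5.16, and the erythroid list fell from 11.1 and 61 in the Apoe-/- libraries to between 0.421 and 0.49 in the others. The ratio of C4b to the fibroblast list was 0.0146 and 0.0206 in the Apoe-/- libraries and 0.0153 to 0.0332 in the others, which overlap, and the part of fibroblast RNA in the C4b rise was not tested. The share of endothelial-like cells with a C1qb UMI was 4.45% and 13.4%, and 1.28% and 3.68% after thinning, against 0.985% and 3.73% in thinned NK/T-like cells. Whether this C1qb is stray RNA from other cells was not tested. Without Apoe-/- replicate 2, C4b (adjusted p = 0.112) and C1qc (0.0662) were lost. Without Apoe-/- replicate 1, C1qb (0.116) and C1qc (0.205) were lost, and without replicate 2 labelled Oasl1-/-Apoe-/- C1qc was (0.0836, all by limma).

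**Figure D5:**
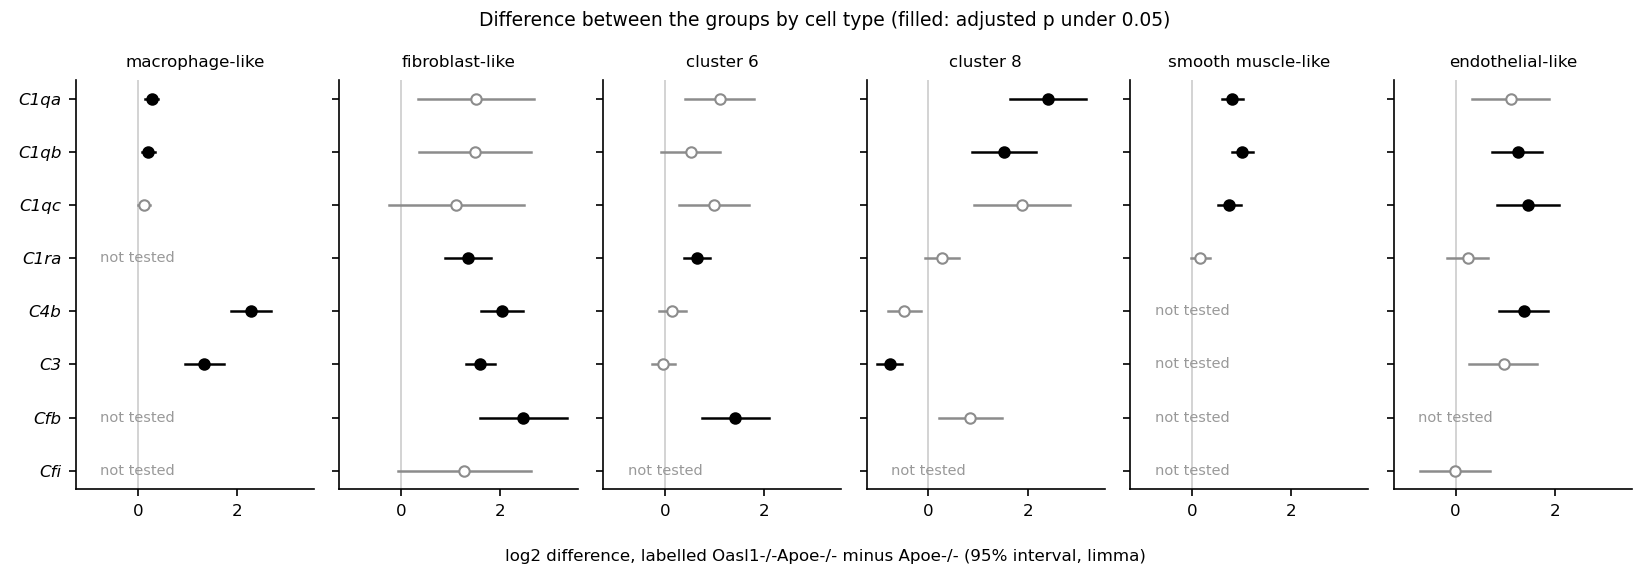
Log2 difference between the groups (labelled Oasl1-/-Apoe-/- minus Apoe-/-) for each gene in 6 groups of cells, with 95% intervals from limma and filled points where the adjusted p is under 0.05. Fibroblast-like cells show rises of 1.35 to 2.46 in C1ra, C4b, C3 and Cfb, macrophage-like cells rises of 0.28 or less in the C1q chains, and cluster 8 a fall of 0.78 in C3.

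The group difference was also compared between pairs of the 4 named types, within each library. Of 28 comparisons of a gene between 2 types, 2 passed, where 4.15% of the 6825 genes tested between macrophage-like and smooth muscle-like cells were called. In the other 5 pairs 0 to 0.126% of genes were (0.0423% for macrophage-like minus fibroblast-like, 0.126% for macrophage-like minus endothelial-like and 0.0243% for smooth muscle-like minus endothelial-like cells). C1qa and C1qb rose less in macrophage-like than in smooth muscle-like cells (log2 -0.53 ± 0.107, adjusted p = 0.0433, and -0.80 ± 0.0985, adjusted p = 0.0121 by limma). The smooth muscle levels were low, and whether they are stray RNA from other cells was not tested. C1qa was lost when any 1 library was left out, and C1qb without either Apoe-/- library or replicate 2 labelled Oasl1-/-Apoe-/-. C1ra, which rose in fibroblast-like and not in smooth muscle-like cells, had a difference of 1.18 ± 0.222 between them (unadjusted p = 0.00102) that did not pass over all genes (adjusted p = 0.277, 0 of 8350 genes called and 809 at an unadjusted p under 0.05).

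The other genes of the pathway were taken from a list of 51 complement genes, of which 40 were in the table, 32 of them beside the 8. Fibroblast-like cells had 3 of 13 such genes called higher and none lower, where 2.06% of all genes tested were higher and 0.756% lower, with a median log2 difference of 0.51 against 0.02 over all genes. These were C2, which is cleaved to form the classical convertase, from 0.337 ± 0.0596 to 1.69 CP10K (2.16 ± 0.305, adjusted p = 1.03e-06 by limma), C1s1, the partner protease of C1r (1.04 ± 0.216, adjusted p = 0.00106), and Serping1, the C1 inhibitor, which was abundant at 21.4 ± 2.32 and 34.5 CP10K (0.69 ± 0.12, adjusted p = 6.65e-05). Since C2 ends just before Cfb, transcripts running past the end of C2 could count for Cfb. Serping1 rose also in endothelial-like cells (1.0 ± 0.174, adjusted p = 0.000143), where it was the only 1 of 8 called and 1.38% of all genes tested were higher. In smooth muscle-like cells Cd59a, which blocks the membrane attack complex, rose (0.36 ± 0.0653, adjusted p = 0.00114 by limma).

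Macrophage-like cells had 2 of 11 higher and 2 lower, where 8.58% of all genes tested were higher and 8.11% lower, with a median of -0.03 against -0.01 over all genes. The receptors for the C3a and C5a fragments rose, C3ar1 from 2.78 ± 0.0578 to 3.59 CP10K (0.36 ± 0.067, adjusted p = 0.00142 by limma) and C5ar1 from 1.34 ± 0.017 to 1.7 (0.33 ± 0.0956, adjusted p = 0.0277). Cfp, properdin, which stabilises the alternative convertase, fell by 0.51 ± 0.0768 (adjusted p = 0.000276), from 2.49 ± 0.0353 to 1.74 CP10K, and Cd93 fell by 0.58 ± 0.112 (adjusted p = 0.00196). Cluster 10 made up 12 of the 587 Apoe-/- macrophage-like cells and 561 of the 1753 others. For C3ar1, C5ar1, Cfp and Cd93 no values without cluster 10 or with clusters weighted equally are given here, so the part of this shift in their calls is not shown. Over the whole aortic arch 8 of 15 were higher, where 20.5% of all genes tested were, and 1, Cd93, was lower (-0.28 ± 0.0825, adjusted p = 0.0204), where 20.6% were. Beside C1s1, Serping1, C3ar1 and C5ar1, the higher ones were Itgam, Itgax and Itgb2, chains of the complement receptors CR3 and CR4, and Cfp, which rose over all cells (0.64 ± 0.0648) and fell within macrophage-like cells.

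The genes outside the complement list most like each member over the 26 clusters and sub-clusters, by Pearson correlation of log2 levels among 6825 genes, differed between the 3 patterns. Of these, Trem2 and Ms4a7 were closest to C1qa, C1qb and C1qc (r between 0.951 and 0.97), and both markers had also been used to name macrophages. C3 was closest to Fbln1 (0.835), a marker that had also been used to name fibroblasts, and to CR974586.5 (0.814). C4b was closest to Efemp1 (0.861) and Plekha4 (0.838), C1ra to Ces2g (0.951) and Mfap2 (0.948), and Cfb to Il33 (0.861) and Ptx3 (0.782). Cfi was closest to Glycam1 (0.876) and Krt18 (0.842). Among the members, r was 0.967 to 0.99 between the C1q chains, 0.84 between C1ra and C4b, and -0.0676 between C1qa and C3. These values describe clusters that share libraries and carry no test.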

How the data were processed

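Cells of the aortic arch were profiled with the 10x Genomics 3′ v2 kit. Per the labels and methods, the authors mapped reads to mm10 with Cell Ranger 3.1.0, kept cells by gene count and mitochondrial share in Seurat 4.0.3, removed doublets with DoubletFinder and deposited 1 table of natural log values, ln(1 + UMIs per 10000). The settings of the log normalisation are not given in the sources used here. From each value the CP10K was recovered, and the UMI count by taking the smallest value of a cell as 1 UMI, which gave whole numbers within 0.01 for 100% of values. No doublet caller was run again. A gene at 0 in a whole library may have been dropped there before deposit, and is called listed at 0.

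The 8 genes, the complement list and the marker lists were chosen with earlier results of these data known. Cells were clustered on 2000 variable genes without the 40 complement genes (12 principal components, 20 neighbours, leidenalg 0.10.2, resolution 1), and a cluster was named where at least 3 markers of a list were raised 2-fold and its 10 leading genes did not go against the name. Genes named are the 8, listed complement genes that passed the threshold, label checks, markers and the 2 genes most like each member. Each library was 1 replicate. limma 3.58.1 in R 4.3.3, with an intensity-dependent variance trend, was run on log2(mean CP10K + 0.05) over all genes with a mean of at least 0.05 CP10K, for groups of at least 20 cells in each library, and p-values were adjusted by Benjamini-Hochberg over all genes tested, with a threshold of 0.05. Log2 differences on this scale understate changes of low genes. Differences between cell types in the group effect were fitted on the within-library differences. limma was tested on simulated data with known changes. Intervals and limits from 0 counts (3 counts, 95% Wilson) cover counting error only. Symbols were matched to GRCm38 annotation for 16324 of 16498 genes. Library totals ran from 16959976 to 19813039 UMIs. Alternatives were other pseudocounts, no filter, summed UMIs with limma-voom, means of the log values, a replicate block, each library left out, a per-cell gate, other clusterings and reweighted cells. The result for 1 listed complement gene is not reported here.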

Additional observations from a re-analysis of the deposited data

Results flagged for a closer look

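The group difference itself differed between 2 cell types for 2 genes, by limma on the within-library differences. C1qb rose by 0.80 less on the log2 scale in macrophage-like than in smooth muscle-like cells (-0.80 ± 0.0985, adjusted p = 0.0121), and C1qa by 0.53 less (-0.53 ± 0.107, adjusted p = 0.0433). In all 3 libraries labelled Oasl1-/-Apoe-/- the within-library difference was below that of both Apoe-/- libraries. The smooth muscle side of both comparisons is low, at most 0.236 CP10K in any library, and whether it is stray RNA from other cells was not tested.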

How the results depend on the processing

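Of 20 results on single genes, compared under 284 combinations with an alternative, 255 kept their direction and side of the threshold, 28 kept the direction but lost the call, and C1qa in macrophage-like cells turned to -0.07 when clusters were weighted equally. Over the whole aorta 6 genes were called with each library left out in turn and 3 when every library was given the same shares of cell types. In macrophage-like cells 4 genes were called, 2 to 5 with a library left out, 2 without cluster 10 and 0 with clusters weighted equally. In fibroblast-like cells 4 were called, 4 to 5 with a library left out, 2 in the per-cell gate and 7 with clusters 6, 8 and 14 together. In smooth muscle-like cells 3 were called throughout the libraries left out. In endothelial-like cells 3 were called, 1 to 4 with a library left out, 0 with no filter, where more genes were tested, and 5 both at resolution 0.5 and with complement genes kept in the clustering. The 2 calls on differences between cell types became 1 at a pseudocount of 0.01, 6 at 0.5 and 0 to 1 with a library left out. The difference in the fibroblast-like share of C3 UMIs, 26.1 percentage points, was 21.8 to 28.8 with a library left out and -9.9 in the gate. That in the macrophage-like share of C1qa, 2.33 points, was 1.7 to 3.35, 8.7 on CP10K and -5.1 in the gate. Except where stated, the cause was not tested.

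The labels number replicates alike in both groups, but same-numbered libraries deviated together hardly at all (correlations 0.0148 and 0.0429 over genes). The deviations of the 2 Apoe-/- libraries from their mean mirror each other, so these values cannot show whether same-numbered libraries share more than a number. With the replicate block, the calls on differences between cell types went from 2 to 1, and no other count of called genes moved by over 1.5 times. The analyses without cluster 10, with clusters 6, 8 and 14 together, without cells holding a mesothelial UMI and of the pairs fibroblast-like minus cluster 6, fibroblast-like minus cluster 8 and cluster 4 minus cluster 11 were chosen after seeing the data. Cfb and Cfi are limited by depth, with few UMIs under Apoe-/- (Cfb 20, Cfi 36). The other group held 288 of Cfb and 63 of Cfi.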
